A study of Homo sapiens with 6 samples.

Results

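Nuclear genes for subunits of respiratory complexes II to V were followed in the non-polysomal RNA of HCT116 cells with and without LARP1. HCT116 is an established human colorectal carcinoma line. Members were the rows of the deposited gene table whose symbol was on a fixed list of subunits, written with the older ATP5 symbols. All 38 were among the 14574 genes of the table: 4 belong to complex II, 9 to complex III, 10 to complex IV and 15 to complex V. LARP1 binds mRNAs for ribosomal proteins and translation factors at their capped 5′ end, where a run of pyrimidines forms the TOP motif. Parental cells and pools of LARP1 knockout cells had both been kept in 250 nM TAK228, which inhibits the kinase mTOR, for 48 h, with fresh drug after 24 h. Lysate was run on sucrose gradients of 10% to 50%, and RNA from the fractions without polysomes was pooled and sequenced. Each genotype had 2 RNA-seq libraries, and the parental RNA was also made into 2 libraries by a protocol for transcription start sites (TSS). No untreated cells, polysomal RNA or whole-cell RNA were used here, so retention of an mRNA in the fraction and its abundance in the cell cannot be told apart.

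The respiratory chain in the inner mitochondrial membrane passes electrons from nutrients to oxygen and stores the energy as a proton gradient. Complex II (succinate dehydrogenase) feeds electrons from the citric acid cycle into ubiquinone, complex III passes them to cytochrome c, and complex IV passes them to oxygen. Complex V (ATP synthase) lets protons flow back through its ring of c subunits and uses the rotation to make ATP. All 4 subunits of complex II are made in the cytosol and imported, while complexes III, IV and V combine imported subunits with a few that the mitochondrion encodes.

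Total depth was 19038642 and 25323973 reads for the parental RNA-seq libraries and 22039174 and 21388111 for those of the knockout. Between 6267820 and 9063478 reads per library lay outside mitochondrial genes, counting the TSS libraries. LARP1 mRNA was lower in the knockout but still present, at 633 and 770.3 normalised reads in the parental and 356 and 284 in the knockout libraries (log2 fold change -1.13, limma adjusted p = 2.86e-09). The labels do not give the edited part of the gene. Of 8 epithelial markers 6 were listed, and their summed level was 13782 and 13094 in the parental and 11952 and 10343.0 in the knockout libraries. Of 10 mesenchymal markers 6 were listed, summing to 769 and 696 in the parental and 934 and 794 in the knockout libraries. Within the epithelial sum EPCAM (log2 fold change -0.93, limma adjusted p = 3.62e-06), KRT19 (-0.85, limma adjusted p = 1.03e-07) and CDH1 (-0.88, limma adjusted p = 0.00383) fell, and KRT8 (0.12), KRT18 (-0.11) and CDX2 (-0.01) were not called. Of the mesenchymal markers 3 rose. VIM went from 5.38 and 6.09 to 710.4 and 626, FN1 from 20.2 and 13.4 to 63.4 and 55.3 and ZEB1 from 37.7 and 26.8 to 103 and 79.9. SPARC fell from 662 and 620.4 to 6.11 and 10.9, and TWIST1 and COL1A1 were not called. None of the 6 blood and 3 endothelial markers was listed. The part of these marker differences in the results on respiratory genes was not tested.

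Most nuclear subunit mRNAs of complexes IV and V were lower in the knockout fraction, those of complex III were split, and no member of complex II was called. Values are normalised read counts, that is reads divided by the size factor of the library, and fold changes are differences of log2(value + 1), knockout minus parental, which understates changes of low genes. A gene was called at a limma adjusted p under 0.05, adjusted over all 14561 genes tested. All 38 members were tested, and the lowest read count of a member in any RNA-seq library was 82. Of the 38 members 24 fell (63.2%), against 25.1% of all genes tested, and 2 rose, against 3.77%. The median log2 fold change was -0.76 for the members and -0.29 for all genes. In bulk RNA, fewer cells that express a gene and less of its RNA per cell cannot be told apart.

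Because the median gene itself lay below 0, the same fit was made after centring each library on its median gene. The members' median was then -0.45, with 20 lower and 5 higher, against backgrounds of 16.2% and 14.6%. All 20 were among the 24. For 30 of the 38 members both knockout values were under both parental ones, as for 50.4% of all genes, and for 2 they were above both, as for 12.4%. In the other 6 the groups overlapped. A fall to at most -1 was called for 16 members, against 12.4% of genes, and 11 of these were at or below -1.5. In the authors' deposited table, which counts the TSS libraries as parental, 23 members were lower and 2 higher. The share of all genes called in that comparison is not given here, and the percentages above do not apply to it.

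**Figure D1:**
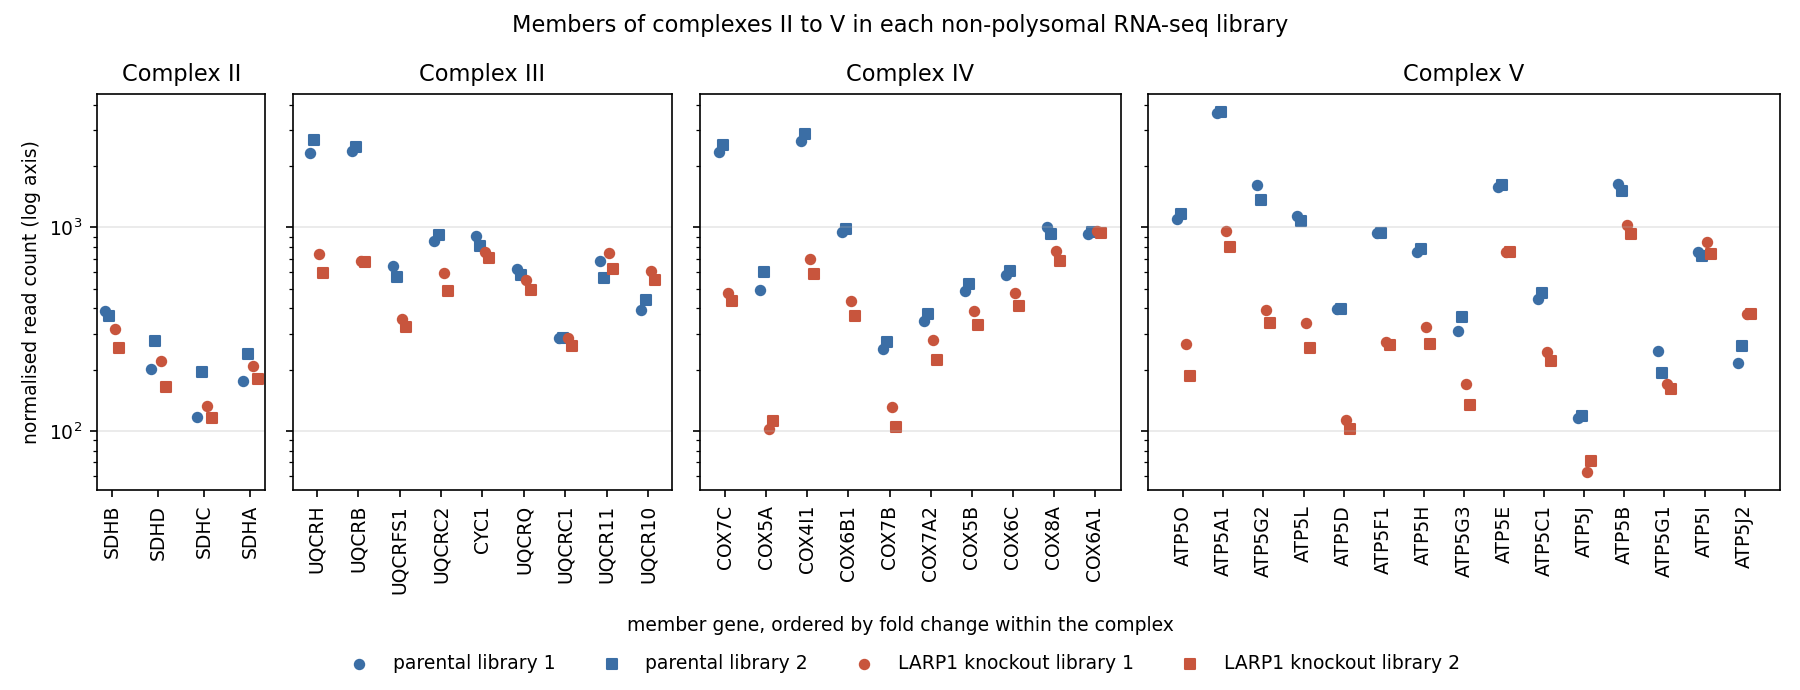
Normalised read count (log axis) of each member in the 2 parental (blue) and 2 knockout (red) RNA-seq libraries, by complex and ordered by fold change within it; each symbol is 1 library. COX7C stands at 2334 and 2549.7 in the parental and 478 and 433 in the knockout libraries, while the libraries of COX6A1 lie on top of each other between 930.2 and 963.

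The first bases of these mRNAs are shown because LARP1 is known to bind a cap followed by C and a run of pyrimidines. RefSeq promoter windows (GRCh38.p14) held an entry for 30 of the 38 members. SDHC, CYC1, UQCRB, COX6C, ATP5B, ATP5D, ATP5G3 and ATP5J2 had none. The motif searched was a C at the annotated first base followed by at least 4 bases that are each C or T, read on the coding strand alone, and a gene with several annotated starts counted if any of them matched. It was present in 7 of the 30 members (23.3%), against 7.36% of the 10698 tested genes with an entry and 5.14% of all 27305 genes in the promoter table. Each sequence runs 5′ to 3′ on the coding strand, from 10 bases before the annotated start to 20 bases from it, and capitals mark the unbroken run of C and T that begins at the first base.
UQCRH, chr1:46303688-46303717, plus strand: cttacaagtcCTTCTTgatcctgaactggg
COX4I1, chr16:85799685-85799714, plus strand: cggccttgctCTCTTCCggtcgcgggacac
COX7C, chr5:86617931-86617960, plus strand: tcccatctttCTTTTCagtccttgcgcacc
ATP5E, chr20:59032316-59032345, minus strand: gtggtctgatCTTCCTgcggctgaaccgcc
ATP5G2, the first of 3 starts, chr12:53676064-53676093, minus strand: cgctgctccgCCCCTCTCTgtcttctctgc
ATP5L, chr11:118401596-118401625, plus strand: tgcagcgggtCCTTCCggcgggtgacattc
ATP5O, chr21:33915785-33915814, minus strand: gcgcgtttctCTCTTCCCactcgggtttga

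For contrast, the next starts carry no such run. COX5A and ATP5A1 (the first of 2 starts) belong to mRNAs that fell strongly. COX6A1, ATP5I, ATP5G1 and UQCR10 belong to mRNAs that were not called lower. The second ATP5A1 start, not printed, begins with C and has an unbroken run of 1 base. Its longest run of C and T within 20 bases on either side is 8, against 4 at the printed start.
COX5A, chr15:74938054-74938083, minus strand: gctccggagcaacccgcgagcttacaccgg
ATP5A1, chr18:46104208-46104237, minus strand: aggctctggcattgcaagcctcgcttcgtt
COX6A1, chr12:120438103-120438132, plus strand: gcgctgcggcagtccagatcaaaaatggcg
ATP5I, chr4:674257-674286, minus strand: tctgcaggttgtgcttccggtgcggaggtc
ATP5G1, chr17:48892777-48892806, plus strand: gagaaggtccaggacacgtgggtgggggaa
UQCR10, chr22:29767359-29767388, plus strand: cagcgcaggcgcggtggcgcgagttggact

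All 7 members with the run fell, with log2 fold changes from -2.42 (COX7C) to -1.07 (ATP5E) and a median of -2.02. Of the other 23 with an entry 13 fell, with a median of -0.50 and a range from -2.33 (COX5A) to 0.48 (UQCR10). Among all tested genes with an entry, 50.7% of the 787 with the run were lower, at a median of -0.60, and 23.4% of the 9911 without it, at a median of -0.27. A C or T stood at the first base in 43.3% of the members and 18.8% of these genes. The longest run of C and T within 20 bases on either side of the start had a median of 5 in both. These counts are a description of annotated starts, which may differ from the starts used in these cells, and a match is not a binding site.

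**Figure D2:**
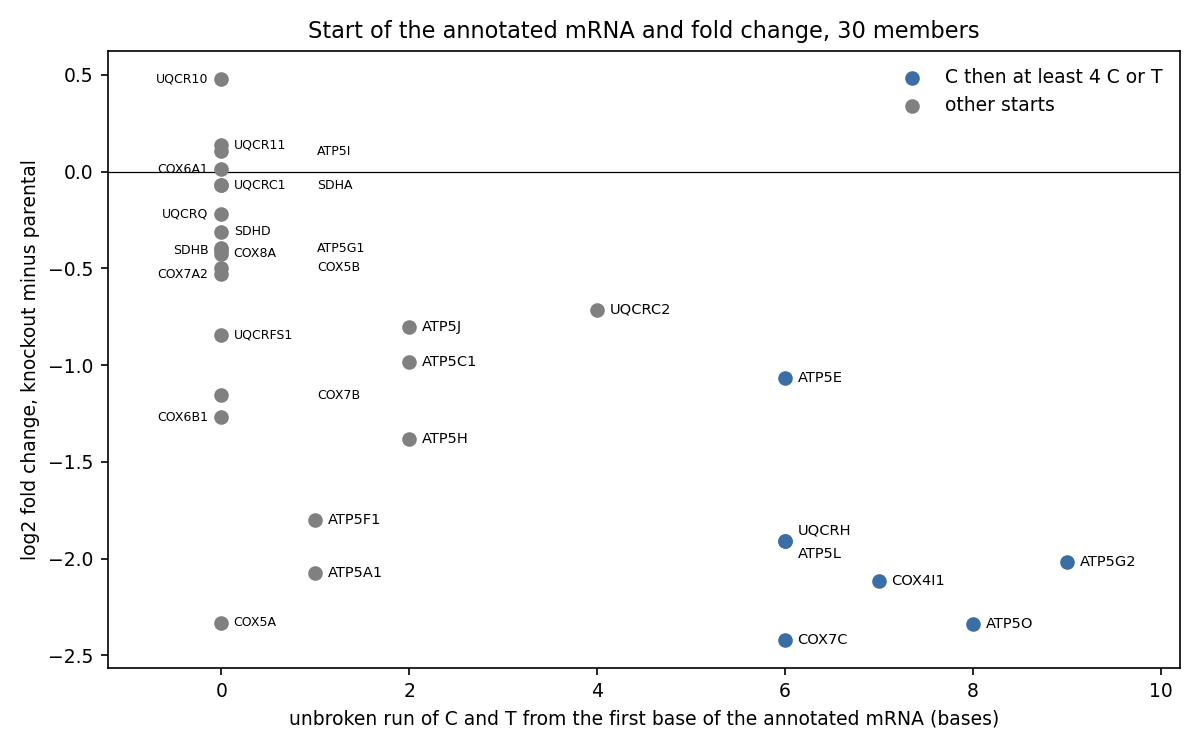
Log2 fold change (knockout minus parental) of the 30 members with a RefSeq promoter entry against the length in bases of the C and T run that begins at the annotated first base; each point is 1 gene. The 7 members that start with C and at least 4 further pyrimidines all lie at or below -1.07, while members with no run span -2.33 to 0.48.

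In complex II limma called 0 of 4 members in either direction. At an unadjusted p under 0.05 it counted 1 member lower and 0 higher, and edgeR and DESeq2 also called 0 either way. SDHA, the flavoprotein that oxidises succinate, stood at 175 and 238 in the parental and 209 and 180.3 in the knockout libraries (log2 fold change -0.07, 95% interval -0.48 to 0.34). SDHB, its iron-sulphur partner, stood at 388 and 367 against 317 and 255 (-0.41, interval -0.77 to -0.04, limma adjusted p = 0.0886). SDHB was the member of this complex whose groups did not overlap. Both of its knockout values were under both parental ones, as for 50.4% of all genes.

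The membrane anchors SDHC and SDHD overlapped between the groups. SDHC stood at 117 and 194 in the parental and 132 and 116 in the knockout libraries (-0.28, interval -0.72 to 0.16, limma adjusted p = 0.369). SDHD, at 201 and 277 against 219 and 164, gave -0.31 (interval -0.71 to 0.09, limma adjusted p = 0.257). The median of the 4 was -0.30, next to -0.29 for all genes, and 0.01 after centring.

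In complex III 4 of 9 members fell, 1 rose and 4 were not called. The strongest falls were in 2 small supernumerary subunits. UQCRH, the acidic hinge protein that contacts cytochrome c1 (ENSG00000173660.11, chromosome 1, 46303631 to 46316776, GRCh38), stood at 2319 and 2687 in the parental and 741 and 597 in the knockout libraries. UQCRH fell 3.74-fold, from 2503 ± 260.3 to 669 ± 102 (SD, n = 2; log2 fold change -1.91, SE 0.16, limma adjusted p = 1.7e-32). UQCRB, a subunit on the matrix side that borders the ubiquinone site (ENSG00000156467.9, chromosome 8, 96225920 to 96235634), stood at 2376 and 2477 against 684 and 677 and fell 3.57-fold (-1.83, SE 0.16, limma adjusted p = 5.21e-30). For both, each parental library was above 3 times each knockout library.

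Of the catalytic subunits, UQCRFS1, the Rieske iron-sulphur protein, fell, and CYC1, the haem-carrying cytochrome c1, was not called. UQCRFS1 (ENSG00000169021.5, chromosome 19, 29205321 to 29213541) stood at 649 and 570.4 in the parental and 354 and 324 in the knockout libraries (-0.84, SE 0.18, limma adjusted p = 2.25e-05). CYC1 stood at 910.0 and 806 against 756 and 705 (-0.23, limma adjusted p = 0.308). The 2 core proteins of the matrix side received different calls, and the difference between them was not tested. UQCRC2 fell by 0.71 on the log2 scale (limma adjusted p = 0.000171). UQCRC1 was not called, at 287 and 286 against 285 and 262 (-0.07, limma adjusted p = 0.829).

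UQCR10, a small subunit next to cytochrome c1 (ENSG00000184076.13, chromosome 22, 29767369 to 29770413), rose 1.40-fold. It stood at 392 and 439 in the parental and 610.4 and 548 in the knockout libraries (0.48 on the log2 scale, SE 0.18, limma adjusted p = 0.0257). Both knockout libraries were higher than both parental ones, but the call was lost whichever library was left out (adjusted p from 0.0818 to 0.36). UQCRQ (-0.22) and UQCR11 (0.13), the remaining small subunits, were not called, and UQCR11 was called higher after centring (0.45). The median of the complex was -0.23, and 0.08 after centring, where 4 members were lower and 2 higher.

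In complex IV 8 of 10 members fell and 2 were not called. Limma called 0 members higher, with 0 at an unadjusted p under 0.05 and 0 by edgeR and DESeq2. COX7C, a small transmembrane subunit (ENSG00000127184.12, chromosome 5, 86617904 to 86620962, GRCh38), stood at 2334 and 2549.7 in the parental and 478 and 433 in the knockout libraries. It fell 5.36-fold, from 2442 ± 152 to 456 ± 32.0 (SD, n = 2; log2 fold change -2.42, SE 0.16, limma adjusted p = 4.86e-50). This was the lowest log2 fold change among the 38 members.

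Next after COX7C by adjusted p were COX4I1 and COX5A. COX4I1, the large nuclear subunit through which ATP is known to act on the enzyme (ENSG00000131143.8, chromosome 16, 85798633 to 85807044), stood at 2672 and 2882 in the parental and 695 and 587 in the knockout libraries and fell 4.33-fold (-2.12, SE 0.16, limma adjusted p = 3.42e-40). COX5A, its matrix-side partner (ENSG00000178741.11, chromosome 15, 74919791 to 74938168), stood at 490.0 and 602 against 102 and 112 and fell 5.09-fold (-2.33, SE 0.20, limma adjusted p = 5.52e-30). The groups of COX4I1 and of COX5A were far apart. COX5B, the zinc-binding subunit on the same side, showed a smaller difference, at 489 and 528 against 389.6 and 332 (-0.50, SE 0.18, limma adjusted p = 0.0235).

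Among the other small subunits, COX6B1, which faces the intermembrane space, fell by 1.27 on the log2 scale (limma adjusted p = 1.89e-12) and COX7B by 1.16 (limma adjusted p = 7.53e-07). COX7A2 (-0.53, limma adjusted p = 0.0227) and COX8A (-0.42, limma adjusted p = 0.0359) passed narrowly. COX6C, at -0.42, did not pass (limma adjusted p = 0.0519). COX6A1 stood level, at 930.2 and 951 in the parental and 963 and 934 in the knockout libraries (0.01, 95% interval -0.30 to 0.33, limma adjusted p = 0.965), and its groups overlapped.

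The complex thus held large and small differences side by side, with 5 falls to at most -1 and a median of -0.84. After centring the median was -0.53, the calls of COX5B, COX7A2 and COX8A were lost, 5 members were lower, and COX6A1 was called higher (0.32). Those 3 calls also held in 1 of the 4 fits that left out a library. COX8A was not called by edgeR (adjusted p = 0.0531), nor COX7A2 by DESeq2 (adjusted p = 0.0513).

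In complex V 12 of 15 members fell, 1 rose and 2 were not called. In the catalytic head, ATP5A1, the alpha subunit (ENSG00000152234.15, chromosome 18, 46080248 to 46104334, GRCh38), stood at 3666 and 3709 in the parental and 957 and 797 in the knockout libraries. It fell 4.20-fold, from 3687 ± 30.6 to 877 ± 113 (SD, n = 2; log2 fold change -2.08, SE 0.15, limma adjusted p = 1.23e-40). ATP5B, the beta subunit that holds the catalytic sites and pairs with alpha in equal numbers, stood at 1637 and 1509 against 1021 and 932 (-0.69, SE 0.16, limma adjusted p = 0.000106). Both fell, and their intervals did not meet: -2.37 to -1.78 for ATP5A1 and -0.99 to -0.38 for ATP5B.

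All 3 central stalk subunits fell. ATP5D, the delta subunit, stood at 397 and 399 in the parental and 113 and 102 in the knockout libraries (-1.88, SE 0.20, limma adjusted p = 2.02e-18). ATP5E (epsilon) fell by 1.07 on the log2 scale, from 1571 and 1610.0 to 758 and 758, and ATP5C1 (gamma) by 0.98, from 446 and 474 to 245 and 219.9. No library of one group reached the other.

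In the peripheral stalk, which holds the head still, all 4 members fell. ATP5O, the oligomycin sensitivity-conferring protein at its top (ENSG00000241837.6, chromosome 21, 33903453 to 33915980), stood at 1104 and 1168 in the parental and 268 and 186 in the knockout libraries and fell (-2.34, SE 0.17, limma adjusted p = 8.12e-39). ATP5F1 (subunit b) gave -1.80, ATP5H (subunit d) -1.38 and ATP5J (subunit F6) -0.80. ATP5J was the least abundant of the 4, at 116 and 118 against 62.6 and 71.0, and its call was lost whichever library was left out, after centring and in DESeq2 (adjusted p = 0.0534).

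The 3 small membrane subunits at the interface of ATP synthase dimers received different calls, and differences between them were not tested. ATP5L (subunit g) stood at 1142 and 1074 in the parental and 338 and 255 in the knockout libraries and fell (-1.91, SE 0.17, limma adjusted p = 5.22e-27). ATP5I (subunit e), at 754 and 720.3 against 846 and 744, was not called (0.11, 95% interval -0.22 to 0.43, limma adjusted p = 0.677). ATP5J2 (subunit f; ENSG00000241468.7, chromosome 7, 99448475 to 99466331) rose 1.57-fold, from 215 and 262 to 374 and 375 (0.65, SE 0.19, limma adjusted p = 0.00361). Its call was lost whichever library was left out (adjusted p from 0.0541 to 0.235), and it shares 177 exon bases on the same strand with the readthrough gene ATP5MF-PTCD1. After centring ATP5I was called higher too (0.42), the complex had 11 lower and 2 higher members, and its median moved from -1.15 to -0.83.

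**Figure D3:**
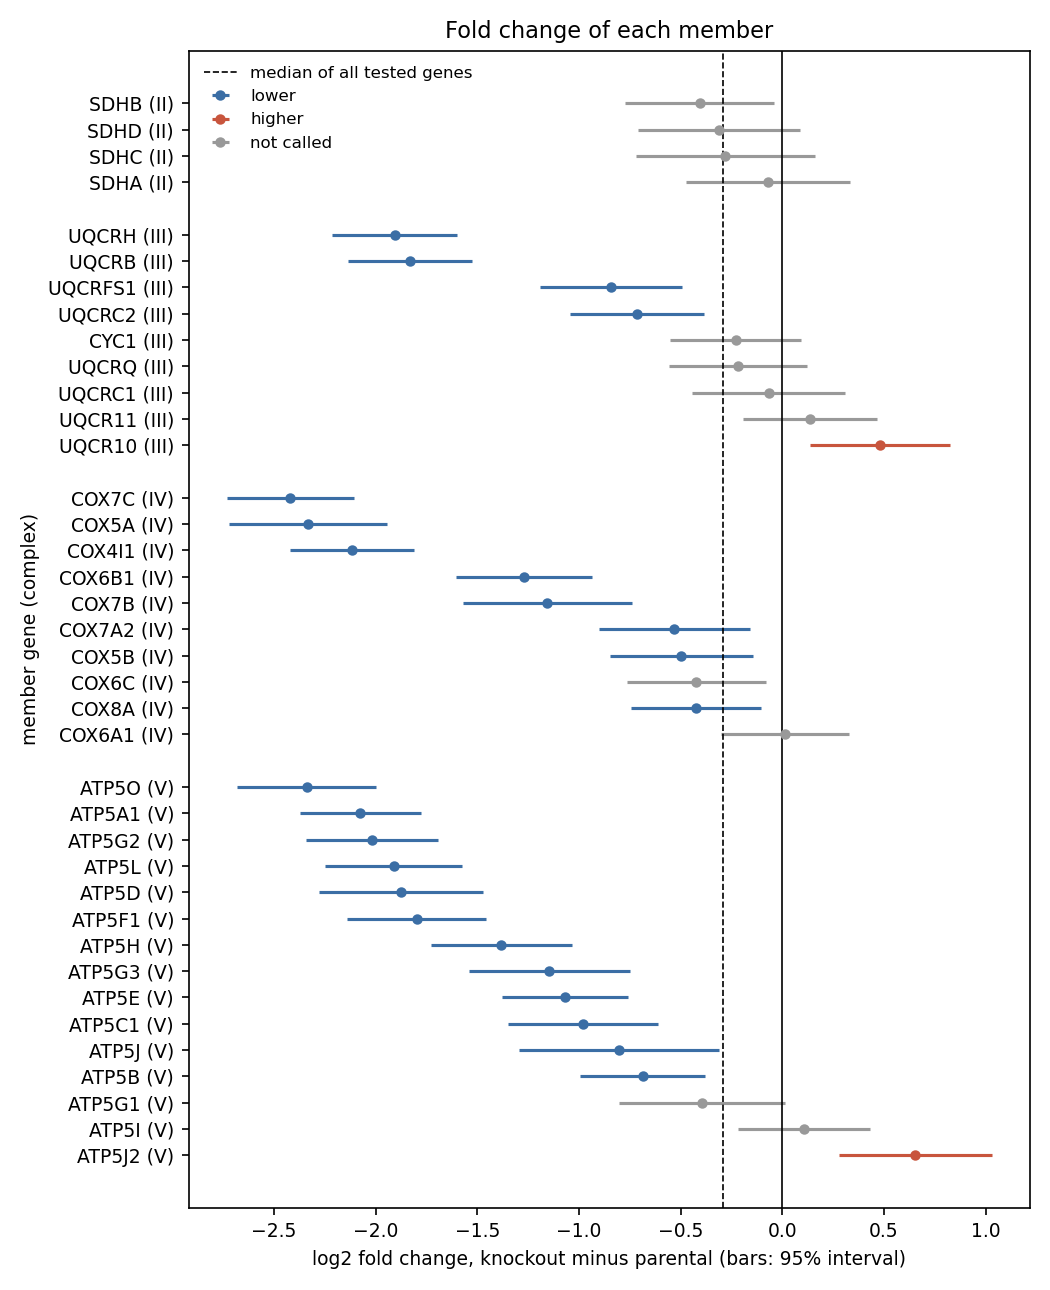
Log2 fold change (knockout minus parental) of each of the 38 members by complex, with 95% intervals from limma; the lines mark 0 and the median of all tested genes (-0.29). Intervals of COX7C, ATP5O, COX5A, COX4I1 and ATP5A1 lie at or below -1.78, and those of UQCR10 and ATP5J2 lie above 0.

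The ring of c subunits is encoded by 3 genes, ATP5G1, ATP5G2 and ATP5G3, which are known to differ in their import signal and to give the same mature protein. ATP5G2 (ENSG00000135390.17, chromosome 12, 53632726 to 53677408) stood at 1613 and 1366 in the parental and 394 and 340.0 in the knockout libraries and fell 4.06-fold (-2.02, SE 0.17, limma adjusted p = 3.89e-32). ATP5G3 (chromosome 2, 175176258 to 175184607), at 309.6 and 363 against 170.4 and 134, fell 2.21-fold (-1.15, SE 0.20, limma adjusted p = 1.99e-07). ATP5G1 (chromosome 17, 48892765 to 48895871), at 246 and 193 against 170.4 and 160.5, was not called (-0.40, 95% interval -0.80 to 0.01, limma adjusted p = 0.146). The 3 genes therefore ranged from the third lowest log2 fold change of complex V to an uncalled one.

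Their mix shifted accordingly. ATP5G2 supplied 74.4% (exact 95% binomial interval 72.2 to 76.5) and 71.1% (68.8 to 73.3) of the reads of the 3 genes in the parental libraries and 53.6% (50.4 to 56.8) and 53.6% (50.3 to 56.9) in the knockout libraries. ATP5G1 supplied 11.4% and 10.0% against 23.2% and 25.3%, and ATP5G3 14.3% and 18.9% against 23.2% and 21.1%. The TSS libraries gave 74.8% and 75.1% for ATP5G2, above both knockout libraries. A share within 3 genes does not depend on the library scaling. The intervals cover counting error only, since reads are not counted by molecule, and 2 libraries against 2 allow no exact permutation p under 0.333.

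**Figure D4:**
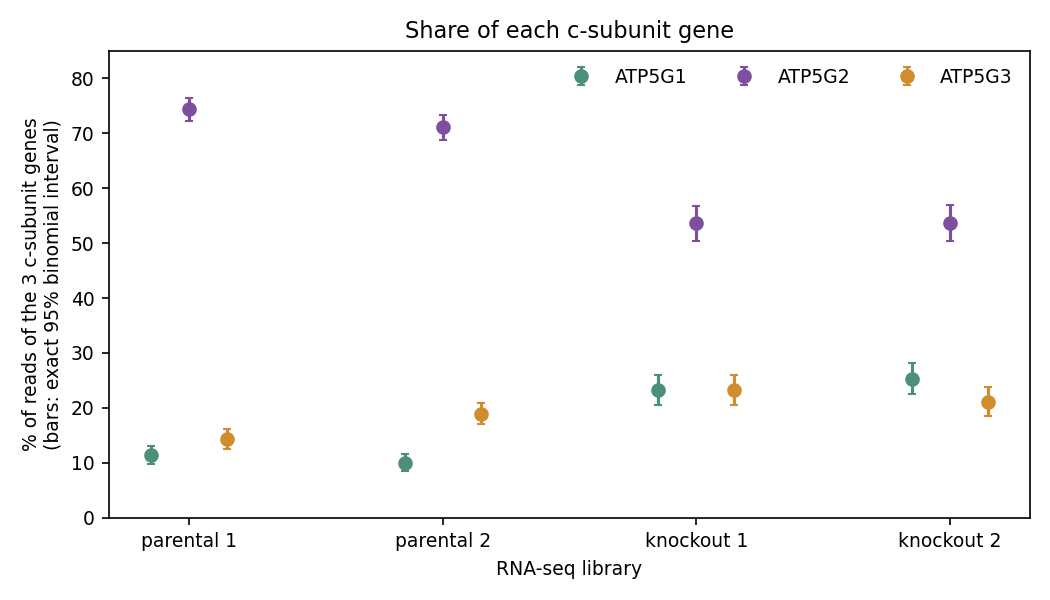
Percent of the reads of the 3 c-subunit genes that each gene supplied in each of the 4 RNA-seq libraries (vertical axis from 0), with exact 95% binomial intervals. ATP5G2 lies at 74.4% and 71.1% in the parental and at 53.6% in both knockout libraries.

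Levels of different members were compared per length, as normalised reads per kb of the union of annotated exons. In the parental libraries the highest means were 1910.0 for COX8A, 1778 for UQCRH, 1225 for COX7C and 1028 for COX6B1, and the lowest were those of SDHC and, at 24.6, SDHA. In the knockout libraries COX8A was still first at 1425, followed by ATP5I at 846 and COX6A1 at 706. The order depends on the length used. Per kb of the median basic protein-coding transcript, a length chosen after the data were seen, the parental order began with UQCRH at 4145, UQCRB at 3762, COX7C at 3667 and COX4I1 at 3498, and the knockout order with ATP5I at 2178, COX6A1 at 1659 and COX8A at 1425. The same 3 genes led the knockout libraries by either length.

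A share of all reads outside mitochondrial genes does not use the deposited scaling, but it rises when other mRNAs take less. On that measure the members together took 0.383% and 0.385% in the parental and 0.354% and 0.356% in the knockout libraries. Complex V took 0.164% and 0.158% against 0.130% and 0.131%, and complex IV 0.110% and 0.115% against 0.0969% and 0.0977%. Complexes III and II went the other way. Complex III took 0.0998% and 0.1003% against 0.109% and 0.110%, and complex II 0.00966% and 0.0116% against 0.0181% and 0.0167%. The RNA-seq groups did not overlap in any of the 4 complexes, with the knockout lower in complexes IV and V and higher in complexes II and III. The TSS libraries of the parental RNA kept these directions for complexes II, III and V but not for complex IV. There they took 0.104% and 0.0966%, the second below both knockout libraries. For all members they took 0.363% and 0.342%, on either side of the knockout values.

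The TSS libraries, made from the same parental RNA, are a second measurement and not replicates. The members' median difference, TSS minus parental RNA-seq on the log2 scale, was -0.22, against -0.11 for all tested genes, and ran from -0.75 (COX6C) to 0.20 (SDHC). With the TSS libraries as the parental group 21 members were lower and 4 higher, against 3121 lower and 922 higher of the 14561 genes tested.

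Genes that work with the members were taken from fixed lists. Of the 37 nuclear subunits of complex I, the NADH dehydrogenase that opens the chain, 13 fell (35.1%, against 25.1% of all genes), at a median of -0.20 and 0.11 after centring. Limma called 0 higher, with 0 at an unadjusted p under 0.05 and 0 by edgeR and DESeq2. Its most clearly lower members were NDUFB5, at 446 and 439 against 134 and 99.7 (-1.92, limma adjusted p = 4.91e-20), and NDUFA10, at 740.4 and 639.9 against 235 and 201 (-1.66, limma adjusted p = 3.46e-18). After centring 11 were lower and 5 higher, against 16.2% and 14.6% of all genes. With the TSS libraries as the parental group 8 were lower, against 3121 of the 14561 genes tested. The median was then -0.0046, against -0.17 for all genes. Without knockout library 2 the median was -0.09, against -0.17 for all genes. Without parental library 2 it was -0.30, against -0.25. Complex I as a whole took, of the same reads, 0.120% and 0.114% in the parental and 0.164% and 0.161% in the knockout libraries, higher in the knockout like complexes II and III.

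All 6 mitochondrially encoded subunits of complexes III to V were called lower with the deposited scaling (against 25.1% of all genes), at a median of -0.96, and 4 after centring (against 16.2%). That count depended on single libraries. It was 3 without knockout library 1, 0 without knockout library 2 (6 at an unadjusted limma p under 0.05), 5 without parental library 1 and 2 without parental library 2, and it was 2 without limma's intensity trend. Their median ran from -1.24 to -0.67 over the fits that left out a library. Reads divided by the reads outside mitochondrial genes, a measure without the deposited scaling, gave mixed directions. MT-CO3 had 134323 and 187236 reads in the parental and 191973 and 192048 in the knockout libraries. Reads outside mitochondrial genes were 6771393 and 7633063 against 6364713 and 6267820. On that ratio MT-CO3 and MT-CO2 were higher in the knockout and MT-CYB was lower, without overlap of the groups. MT-CO1, MT-ATP6 and MT-ATP8 overlapped. MT-CYB, the cytochrome b of complex III, stood at 21488 and 39683 in the parental and 9366 and 8386 in the knockout libraries (-1.72, limma adjusted p = 1.6e-30). MT-ATP6, the proton channel subunit of complex V, stood at 10280.4 and 15279 against 6806 and 5923 (-0.98, limma adjusted p = 1.86e-10). The parental libraries of both genes were well apart from each other. MT-RNR2, which encodes a mitochondrial ribosomal RNA, held 55.3% and 57.9% of all reads in the parental and 63.1% and 62.5% in the knockout libraries, and the part of mitochondrial RNA content in these values was not tested.

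Assembly factors, which insert cofactors and join subunits without staying in the enzyme, gave 12 lower (30.8%, against 25.1% of all genes) and 2 higher among 39 rows of complexes II to V, at a median of -0.32, next to -0.29 for all genes. After centring 8 were lower and 5 higher, against 16.2% and 14.6% of all genes. With the TSS libraries as the parental group 3 were lower, against 3121 of the 14561 genes tested. Left out in turn, knockout libraries 1 and 2 gave medians of -0.36 and -0.17, against -0.41 and -0.17 for all genes. Parental libraries 1 and 2, left out in turn, gave -0.39 and -0.18, against -0.36 and -0.25 for all genes. LRPPRC, which stabilises mitochondrial mRNAs, stood at 1387 and 1661 against 655 and 578 (-1.30, limma adjusted p = 1.74e-14), UQCC1, a complex III factor, at 295 and 351 against 185 and 145 (-0.97, limma adjusted p = 1.46e-05), and SDHAF1, which helps load the iron-sulphur clusters of SDHB, at 215 and 201 against 158 and 88.8 (-0.81, limma adjusted p = 0.00144). In these 3 both knockout values were under both parental ones, as in 53.8% of the 39 rows and 50.4% of all genes. BCS1L, which inserts the Rieske protein, gave -0.70 (limma adjusted p = 0.00362) and FMC1, a complex V factor, -1.27 (limma adjusted p = 0.000711). SDHAF3 (-0.42, limma adjusted p = 0.303) and TMEM70 (-0.50, limma adjusted p = 0.149) were not called.

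Both higher rows belonged to complex IV. COX20, which helps mature the mitochondrially encoded COX2, rose from 318 and 361 to 516 and 488 (0.57, limma adjusted p = 0.00873). The other was 1 of 2 overlapping identifiers of SCO2, a copper chaperone. ENSG00000284194.1 was listed at 0 in both parental RNA-seq libraries but at 35.1 and 17.8 in the knockout and at 20.6 and 17.8 in the TSS libraries, while ENSG00000130489.14 fell from 121 and 123 to 50.4 and 51.2 (-1.25, limma adjusted p = 1.58e-05). Reads of SCO2 can be split between the 2 identifiers, so its direction is uncertain.

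Of 14 accessory and isoform genes outside the members 8 were listed, and 6 of these fell, against 25.1% of all genes, at a median of -1.15. Not all are subunits: CYCS, 1 of the 6 (-0.60), encodes cytochrome c, the carrier between complexes III and IV. After centring 4 were lower, against 16.2%, and 4 to 6 were lower when a library was left out. COX7A2L, which joins complexes III and IV into supercomplexes, fell from 967 and 910.4 to 156 and 118 (-2.78, limma adjusted p = 5.52e-49), further than any member. UQCRHL, a near-identical copy of UQCRH, fell from 394 and 417 to 101 and 78.5 (-2.18, limma adjusted p = 9.59e-24), and reads may be split between both. Of 10 tested transcriptional regulators of respiratory genes 5 fell, against 25.1% of all genes, at a median of -0.48. After centring 3 were lower, against 16.2%, DESeq2 called 3, and the count was 3 without knockout library 1, parental library 1 or parental library 2 and 2 without knockout library 2. TFB1M, a mitochondrial rRNA methyltransferase, gave -1.35 (limma adjusted p = 4e-07) and the nuclear receptor ESRRA -0.92 (limma adjusted p = 3.72e-05). Limma called 0 higher among the mitochondrially encoded subunits, the accessory and isoform genes and the regulators. In each list it counted 0 higher at an unadjusted p under 0.05, and edgeR and DESeq2 called 0 higher.

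**Figure D5:**
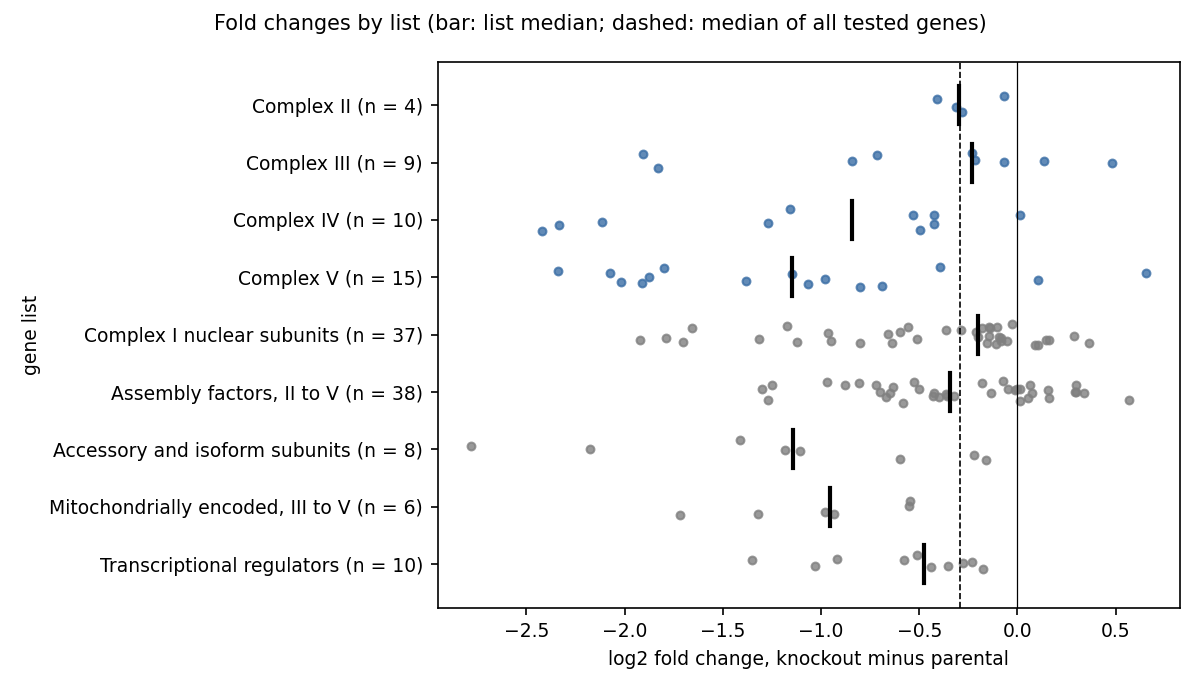
Log2 fold change (knockout minus parental) of every tested gene in the 4 complexes (blue) and the related lists (grey), with the median of each list as a black bar and that of all tested genes (-0.29) as a dashed line; the SCO2 row listed at 0 in both parental libraries is not drawn. Complexes IV and V have medians of -0.84 and -1.15, and complexes II and III and complex I have medians from -0.30 to -0.20.

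Several values rest on reads that may be shared. In GENCODE 29, 27 of the 38 members have a named pseudogene, and 9 share exon bases with another gene of the table. The largest overlaps on the opposite strand are 579 bases between ATP5I and MYL5, 413 between ATP5J and GABPA, 350 between ATP5F1 and WDR77, 340 between ATP5H and KCTD2 and 306 between UQCRQ and GDF9. The use of strand in counting is not given in the sources used here, so reads of these pairs cannot be told apart.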

How the data were processed

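RNA-seq libraries of non-polysomal RNA (1 mg lysate, 20% of each fraction's volume pooled, 1 µg RNA depleted of ribosomal RNA, paired 150-base reads, per the labels' protocols) were used. The submitters' processing notes name STAR 2.6, RSEM, SAMtools, DESeq2 and GRCh38, and no annotation release is given in the sources used here. The authors deposited 6 columns of signal (read counts per gene over the size factor of the library). Whole reads were recovered for 100% of values (tolerance 0.001). Per the file headers the authors' deposited table also held a log2 fold change with its error, a linear fold (ratio), a test score, p-values with adjusted values and their −log10; its log2 fold change is parental over knockout and was turned here.

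Because the deposited values were normalised, log2(value + 1) was tested with limma-trend in R 4.3.3 (limma 3.58.1), deposited scaling kept. The 14561 genes that reached a value of 1 in 2 or more of the 4 RNA-seq libraries entered. The fit had genotype as its single term, and two-sided p-values were adjusted by Benjamini-Hochberg over these genes. With infinite prior degrees of freedom, limma took the spread wholly from the trend over level. The labels call the libraries biological replicates and name no separate cultures, so the p-values may measure technical spread. The code was tested on simulated data. edgeR 4.0.16 and DESeq2 1.42.0 on recovered reads, other scalings, filters and pseudocounts, the replicate block, the TSS libraries and leaving out each library were alternatives. Shares have exact Clopper-Pearson intervals. Coordinates are from GENCODE 29 (GRCh38, 1-based), and start sequences from RefSeq (GRCh38.p14), matched by current symbol.

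Members and lists were chosen with earlier results of these data known. Values per library were planned for the 3 called members of each complex with the smallest adjusted p, members that rose, complex II, the 3 c-subunit genes, LARP1, and the 2 members of each pathway list with the smallest adjusted p; other members given per library, the starts printed and COX20 were chosen after their values were seen. Protein sequences were not analysed here.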

Additional observations from a re-analysis of the deposited data

How the results depend on the processing

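Scaling moved the most values. With TMM factors, median centring and median-of-ratios factors in turn, the members higher were 5, 5 and 5 (2 with the deposited scaling), the members' median -0.46, -0.45 and -0.46 (-0.76), the complex IV lower count 5, 5 and 5 (8), and the medians -0.0010, 0.015 and 0.0056 in complex II, 0.067, 0.081 and 0.074 in complex III, -0.55, -0.53 and -0.54 in complex IV, -0.85, -0.83 and -0.84 in complex V, and 0.10, 0.11 and 0.10 in complex I. The median of all genes was 0.017 after centring and 0.0045 with median-of-ratios factors. In the same order, SDHA gave 0.23, 0.24 and 0.23, SDHC 0.014, 0.030 and 0.021, CYC1 0.067, 0.081 and 0.074, UQCRC1 0.23, 0.24 and 0.23, and UQCRQ 0.079, 0.093 and 0.086, all below 0 with the deposited scaling and none called there. With the TSS libraries as the parental group, 4 members were higher, 5 of complex IV lower, the medians were -0.59 for the members and -0.039, -0.52 and -0.85 for complexes III, IV and V, and SDHA gave 0.18, UQCRQ 0.27 and COX6C 0.33. With RNA-seq and TSS averaged, the complex IV median was -0.67, SDHA 0.054 and UQCRQ 0.025. Without the intensity trend 0 members were higher and 5 of complex IV lower. Where a call also needed a log2 change of 1 or more in size, these were 0 and 5, and 2 of complex III were lower. Leaving out each library, where the lone library of a group is assumed to vary like the others, gave 18 to 24 members lower and 0 to 0 higher, 5 to 9 of complex IV lower, and medians from -0.46 to -0.00049 in complex II, -1.002 to -0.69 in complex IV and -1.32 to -1.05 in complex V; SDHA ran from -0.29 to 0.15, SDHC from -0.64 to 0.080, UQCR11 from -0.0033 to 0.27 and COX6A1 from -0.0097 to 0.035. Of the 26 calls 17 held in all 4 of these fits. UQCRFS1, UQCRC2 and ATP5B held in 3, COX5B, COX7A2 and COX8A in 1, and UQCR10, ATP5J2 and ATP5J in 0. The deviations of same-numbered libraries had a correlation of -0.0232 over genes. From 2 libraries per group this cannot show whether a number marks a shared culture or day. With the replicate block 21 members were lower, 1 higher and 5 of complex IV lower. Over all genes, 3649 lower calls became 2365 after centring, 2402 with median-of-ratios factors, 1962 without the trend and 1233 to 2416 without 1 library, and 549 higher calls became 2119, 2006, 282 and 116 to 389; TMM gave 1976 higher, the TSS libraries 922, the average 826, DESeq2 292 and the fold limit 1803 lower and 274 higher. Across members and alternatives 551 log2 fold changes kept their direction and side of the threshold, 56 lost and 13 gained a call, and 26 changed sign. The causes were not tested. With 2 libraries per group, a member that was not called may still differ by any log2 fold change inside its 95% interval.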
